A study of Rattus norvegicus with 31 samples.

Results

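Genes of cytotoxic lymphocytes and of the chemokines that attract lymphocytes were followed in liver, white fat (WAT) and brown fat (BAT) of young rats given diets with different carbohydrate-fat ratios. The group held 7 genes, *Prf1*, *Gzmb*, *Nkg7*, *Cd8a*, *Cd2*, *Ccl5* and *Cxcl13*, which were read from the 10 probe sets annotated to a single member, out of 14217 named genes and 31042 probe sets on the array. A further probe set shared by *Gzmb* and another gene was left out. The genes were selected on results of these arrays, above all their liver values by diet, so the liver values are given as a description and without a test.

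The rats were male Wistar rats, 3 weeks old at the start, that received a low-fat (L), moderate-fat (M) or high-fat (H) diet for 9 weeks and were fasted for 17 h before dissection. Carbohydrate and fat supplied 65% and 15% of energy in the L-group, 60% and 20% in the M-group, and 35% and 45% in the H-group. The L-group ate freely, and the M- and H-groups were given the same energy as the L-group. Liver arrays came from 5 L rats (L1 to L5), 4 M rats (M6, M8, M9 and M10) and 4 H rats (H12, H13, H15 and H16), and WAT and BAT arrays from the same 5 L and 4 H rats, 31 arrays in all. Each array held the RNA of 1 tissue of 1 rat, and the labels name no gene change or drug.

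Cytotoxic lymphocytes, which are CD8 T cells and natural killer (NK) cells, kill target cells by releasing granules. Perforin, encoded by *Prf1*, opens the target cell membrane, and granzymes such as that of *Gzmb* enter and start cell death. Chemokines are small secreted proteins that guide such cells into a tissue: *Ccl5* is made by activated T and NK cells and attracts T cells and monocytes, and *Cxcl13* attracts B cells and follicular helper T cells through the receptor CXCR5. The liver of a healthy animal is known to hold many NK and T cells in its sinusoids, while adipose tissue gains such cells in obesity.

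All values below are log2 values as deposited, and a fold change is a difference of group means on that scale. The tissue markers matched the labels: *Alb* lay between 14.28 and 14.30 in the liver, *Adipoq* between 13.20 and 13.39 in WAT, and *Ucp1* between 14.44 and 14.89 in BAT. *Alb* also reached 12.62 to 13.36 in BAT and 7.83 to 12.71 in WAT. Among the livers, that of rat M9 had the lowest mean correlation with the other arrays. The tissues were normalized by different methods, so levels were not compared between them. In bulk tissue, fewer cells of a type and less RNA per cell cannot be told apart.

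The levels of several members were close to background, which limits what their differences can show. In the liver, *Gzmb*, *Nkg7*, *Cd8a* and *Cd2* lay below the array's own median on 13 of 13 arrays and *Cxcl13* on 10 of 13, whereas *Prf1* and *Ccl5* lay above it on every array. The T cell receptor chain gene *Cd3e*, which defines T cells, averaged 3.95 ± 0.21 (SD, n = 5) over the L livers and 3.95 ± 0.05 (SD, n = 4) over the H livers, also under the array medians of 4.67 to 4.70. Of the 24 T cell genes on the array, 13 were below the median on every liver array, as were 8 of the 15 NK cell genes and 9 of the 12 B and plasma cell genes.

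The start regions of *Prf1*, *Gzmb* and *Cxcl13* are shown first, because *Prf1* and *Cxcl13* were higher in every H liver than in any L liver and *Gzmb* encodes the granule protease that works with perforin. The sequences are the 250 bases before the annotated start in RefSeq (build GRCr8), written 5′ to 3′ on the strand of the gene, with motif matches in capitals. A promoter sequence was matched for 6 of the 7 members, and *Ccl5*, which had none, was not searched. *Prf1* is at chr20:29788790-29789039 on the plus strand, *Gzmb* at chr15:34462470-34462719 on the minus strand, and *Cxcl13* at chr14:13917921-13918170 on the minus strand.
Prf1: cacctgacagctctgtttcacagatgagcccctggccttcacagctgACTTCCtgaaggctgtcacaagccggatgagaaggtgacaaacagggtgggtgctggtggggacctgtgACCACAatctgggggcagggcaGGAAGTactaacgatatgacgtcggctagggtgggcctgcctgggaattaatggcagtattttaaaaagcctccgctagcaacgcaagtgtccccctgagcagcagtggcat
Gzmb: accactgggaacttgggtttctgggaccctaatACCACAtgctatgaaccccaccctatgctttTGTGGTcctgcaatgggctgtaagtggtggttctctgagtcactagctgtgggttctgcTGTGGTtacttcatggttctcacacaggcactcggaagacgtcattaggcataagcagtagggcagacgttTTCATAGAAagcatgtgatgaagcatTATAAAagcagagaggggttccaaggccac
Cxcl13: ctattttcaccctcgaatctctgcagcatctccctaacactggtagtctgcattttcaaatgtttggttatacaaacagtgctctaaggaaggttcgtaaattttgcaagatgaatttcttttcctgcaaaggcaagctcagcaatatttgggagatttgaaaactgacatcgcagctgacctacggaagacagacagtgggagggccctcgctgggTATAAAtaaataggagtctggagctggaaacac

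Each window was searched on both strands for 7 motifs, given here by their letters, and the share of all 33469 promoter windows of this length with a match is given beside each. TGTGGT, the core bound by RUNX factors, which act in T and NK cells, was found in *Prf1*, *Gzmb*, *Nkg7* and *Cd2*, and in 14.5% of all windows. GGAAGT, a core of ETS factor sites, was found in *Prf1* alone among the 6 members searched and in 19.2% of all windows. TATAAA, the TATA box, was found in *Gzmb* and *Cxcl13*, starting 30 and 33 bases before the start, and in 12.9% of all windows. TTCNNNGAA, the gamma-activated site bound by STAT factors, was found in *Gzmb* and *Nkg7* and in 7.67% of all windows. None of the 6 windows searched held GGGANTTTCC, a form of the NF-kappaB site (0.314% of all windows). They also lacked GAAANNGAAA, the interferon-stimulated response element (3.41%), and CACGTG, the E-box of clock factors (5.59%). None of the capital stretches shown overlap each other. A match is a description of letters, and these data hold no measure of binding at these sites.

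The first comparison asked how the members differed between the L and H livers. *Prf1*, *Ccl5* and *Cxcl13* were higher in every H rat than in any L rat, and the other members overlapped. Higher values in H without overlap were seen for 3 of the 7 members, against 1.6% of all probe sets, and 6 of the 7 differences were above 0, against 49.7% of all probe sets. The small differences rested on single rats, since that of *Cd8a* was -0.034 without H12 and that of *Cd2* was 0.0016 without H16. The median difference of the 7 was 0.21, and that of all probe sets was near 0. Without 1 rat the median of the 7 ranged from 0.13 to 0.28, at 0.13 without H15 and 0.14 without L5. Because the choice of the genes used these arrays, the count is not evidence about the members.

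*Prf1*, the pore-forming protein of the granules, was at 5.48, 5.42, 5.56, 5.48 and 5.48 in rats L1 to L5. It was at 5.86, 5.63, 6.09 and 5.63 in M6, M8, M9 and M10, and at 6.18, 5.88, 5.99 and 5.75 in H12, H13, H15 and H16. The L rats lay within a narrow band, and every M and H rat lay above it. Group means were 5.48 ± 0.05 (SD, n = 5), 5.80 ± 0.22 (SD, n = 4) and 5.95 ± 0.18 (SD, n = 4), so that H lay 1.38-fold above L, or 0.47 on the log2 scale (standard error 0.10). The study's text gives *Prf1* as lower in H in the liver, the opposite direction.

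*Ccl5*, the T cell and monocyte attractant, was at 7.52, 7.54, 7.62, 7.60 and 7.38 in rats L1 to L5. It was at 7.88, 7.67, 8.38 and 7.63 in M6, M8, M9 and M10, and at 7.93, 8.04, 8.13 and 7.81 in H12, H13, H15 and H16. As with *Prf1*, no L rat reached any M or H rat, but M10 and L3 were only 7.63 and 7.62. The highest liver was not an H liver but that of M9. The log2 fold change from L to H was 0.45 (standard error 0.13), or 1.36-fold, with group means of 7.53 ± 0.10 (SD, n = 5) and 7.98 ± 0.14 (SD, n = 4).

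*Cxcl13*, the B cell attractant, had the widest range of the members. It was at 4.03, 3.83, 3.75, 3.34 and 4.08 in rats L1 to L5, and at 3.69, 3.98, 4.79 and 4.69 in M6, M8, M9 and M10. The H rats were at 4.44, 4.25, 6.06 and 5.16, with H15 far above the other livers. The H-group mean was 4.98 ± 0.82 (SD, n = 4), 2.25-fold above the L-group mean of 3.81 ± 0.29 (SD, n = 5), and without any 1 rat the difference lay between 0.81 and 1.41 on the log2 scale. H12 and H13 were below the array medians although above every L rat.

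**Figure D1:**
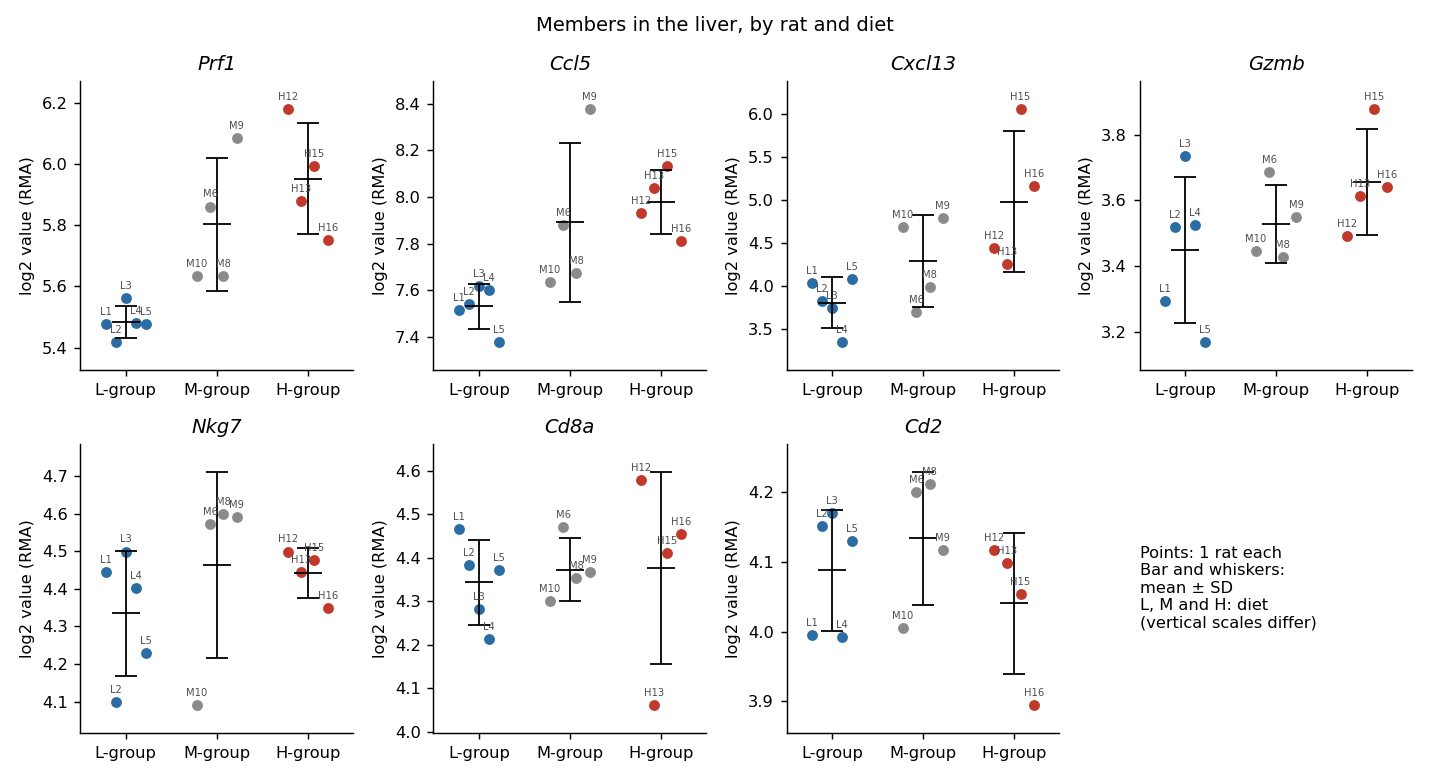
Liver log2 values (RMA) of the 7 members on the vertical axis, by diet group on the horizontal axis; each point is 1 rat (5 L, 4 M and 4 H), the bar is the group mean and the whiskers the SD. In *Prf1* and *Ccl5* all M and H rats lie above all L rats, in *Cxcl13* all H rats lie above all L rats, and in *Gzmb*, *Nkg7*, *Cd8a* and *Cd2* the groups overlap.

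The granule protease gene *Gzmb* was at 3.30, 3.52, 3.74, 3.53 and 3.17 in rats L1 to L5, and at 3.49, 3.61, 3.88 and 3.64 in H12, H13, H15 and H16. L3 was above 3 of the 4 H rats, so that the groups overlapped at a log2 fold change of 0.21 (standard error 0.11). The second *Gzmb* probe set gave 0.26 (standard error 0.09), with 3 of 4 H rats above every L rat.

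*Nkg7*, a granule membrane protein gene of NK and T cells, spanned 4.10 to 4.50 among L rats and 4.35 to 4.50 among H rats, a log2 fold change of 0.11 (standard error 0.11). *Cd8a*, the co-receptor chain that marks cytotoxic T cells, spanned 4.21 to 4.47 and 4.06 to 4.58, a log2 fold change of 0.03 (standard error 0.09). Its 3 probe sets did not give the same picture. The second one was above every L rat in all 4 H rats, with a log2 fold change of 0.26 (standard error 0.08). There H13 at 4.0814 was only just above L2 at 4.0787. The third probe set gave -0.09 (standard error 0.07). *Cd2*, an adhesion receptor of T and NK cells, spanned 3.99 to 4.17 and 3.89 to 4.12, a log2 fold change of -0.05 (standard error 0.07). On the probe sets that stand for them, *Cd8a* and *Cd2* thus had differences within their standard errors, at levels below the array medians.

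The M diet had a carbohydrate-fat ratio close to that of the L diet and allowed the next question, of whether the liver values moved with a small change of diet. All 7 members had M means above the L means, as did 49.4% of all probe sets, with log2 fold changes from 0.03 for *Cd8a* to 0.48 for *Cxcl13* and a median of 0.13. The *Cd8a* difference was just below 0 without L4 and, at -0.0034, without M6. *Prf1* and *Ccl5*, 2 of the 7, were higher in every M rat than in any L rat, against 0.493% of all probe sets. Their log2 fold changes from L to M were 0.32 (standard error 0.10) and 0.36 (standard error 0.13). Rat M9, whose array stood lowest in correlation with the others, had the highest *Ccl5* and the second highest *Prf1* of all 13 livers. Without M9 the L to M difference of *Ccl5* was 0.20, more than 1.5 times smaller, and that of *Prf1* 0.23. The comparison shares the L arrays with that of L and H, so it does not give separate support.

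From M to H the groups overlapped for all 7 members, where 1.52% of all probe sets were higher in H without overlap, and the median log2 fold change was 0.09. The values were 0.15 (standard error 0.10) for *Prf1*, 0.09 (standard error 0.13) for *Ccl5* and 0.69 (standard error 0.35) for *Cxcl13*. Without 1 rat, *Prf1* ran from 0.072 without H12 to 0.24 without M9, *Ccl5* from 0.0014 without M10 to 0.25 without M9, and *Cxcl13* from 0.33 without H15 to 0.93 without H13. The median of the 7 ran from 0.0014 without M10 to 0.14 without M9, so single rats set the size of these differences. *Nkg7* and *Cd2* lay at -0.02 (standard error 0.11) and -0.09 (standard error 0.07). Group means rose in the order L, M, H for 5 of the 7 members, the exceptions being *Nkg7* and *Cd2*, in which the M-group had the highest mean. For *Cd8a* and *Nkg7* that order rested on single rats, as without 1 rat the M to H difference ran from -0.064 to 0.11 and from -0.15 to 0.024. For *Prf1* and *Ccl5*, the M and H rats overlapped, and all of them lay above the L rats.

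**Figure D2:**
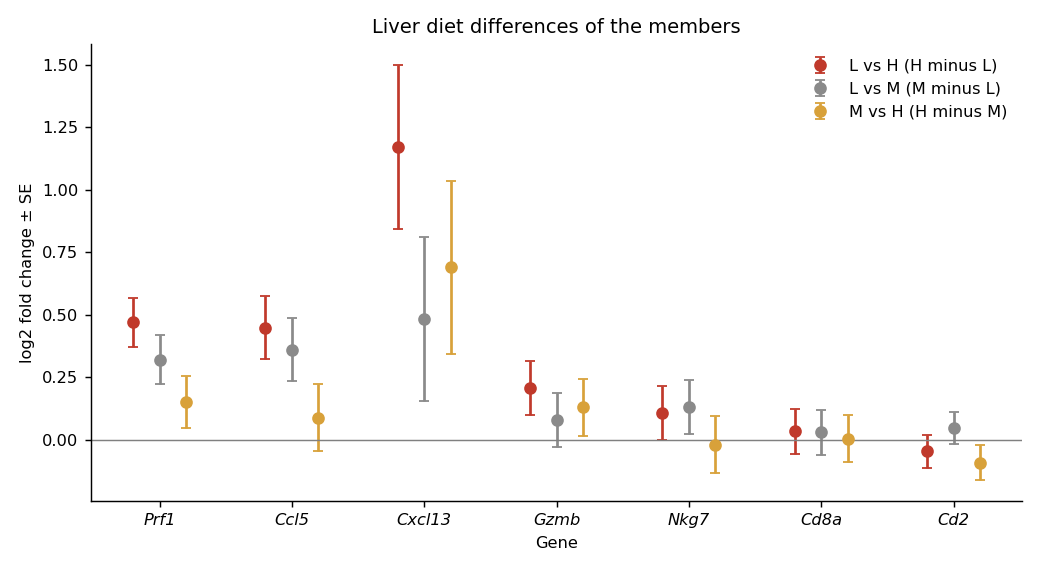
Log2 fold change of each member (horizontal axis: gene; vertical axis: difference of group means) in the 3 liver comparisons, with standard errors from limma as whiskers. For *Prf1* and *Ccl5* the L vs H and L vs M points lie near each other, at 0.47 and 0.32 and at 0.45 and 0.36, and the M vs H points at 0.15 and 0.09; *Cxcl13* has its largest value in L vs H.

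The rest of the pathway in the liver was read from 10 lists of immune genes, with 171 distinct genes on the array. Limma called none of the 171 between L and H over all probe sets (0.0354% of all probe sets were called), and 14 were higher and 6 lower at an unadjusted p under 0.05, as were 4.54% and 4.51% of all probe sets. Rank products, the test used by the study, called 5 higher in H and 1 lower, against 0.664% and 0.731% of all probe sets. The genes called higher were *Gzma*, *Cxcl1*, *Cxcl10*, *Pf4* and *Gbp2*, and *Cd14* was called lower. Of the 9 fits that left out 1 rat, all 9 called *Cxcl1*, 8 *Cd14* (not without H12), 6 *Gbp2*, 4 *Cxcl10*, 4 *Pf4* and 3 *Gzma*.

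Among the 16 other genes of cytotoxic granules and killing, 8 had a higher and 8 a lower mean in H, with a median log2 fold change of 0.01. Granzyme A, encoded by *Gzma*, is an abundant protease of NK and CD8 T cell granules. It was at 5.59, 5.94, 5.95, 5.93 and 5.67 in rats L1 to L5. It was at 6.07, 6.07, 6.71 and 6.07 in M6, M8, M9 and M10, and at 6.50, 6.10, 6.56 and 6.07 in H12, H13, H15 and H16. Again no L rat reached any M or H rat, and M9 was highest, as for *Ccl5*. Of these 16 genes, 1 was higher and 1 lower in H than in L without overlap. Over all 171 immune list genes, 1 was higher and 2 were lower without overlap, against 1.6% and 1.46% of all probe sets. The separation of *Gzma* is thus not read as a result. Its log2 fold change from L to H was 0.49 (standard error 0.15, adjusted p = 0.354 by limma). Rank products called *Gzma* with all rats but in only 3 of the 9 fits that left out 1 rat. From L to M the log2 fold change was 0.41 (standard error 0.15). Granzymes K and M, encoded by *Gzmk* and *Gzmm*, differed by 0.07 (standard error 0.08) and 0.03 (standard error 0.06), and *Faslg*, the death ligand, by 0.00 (standard error 0.08).

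**Figure D3:**
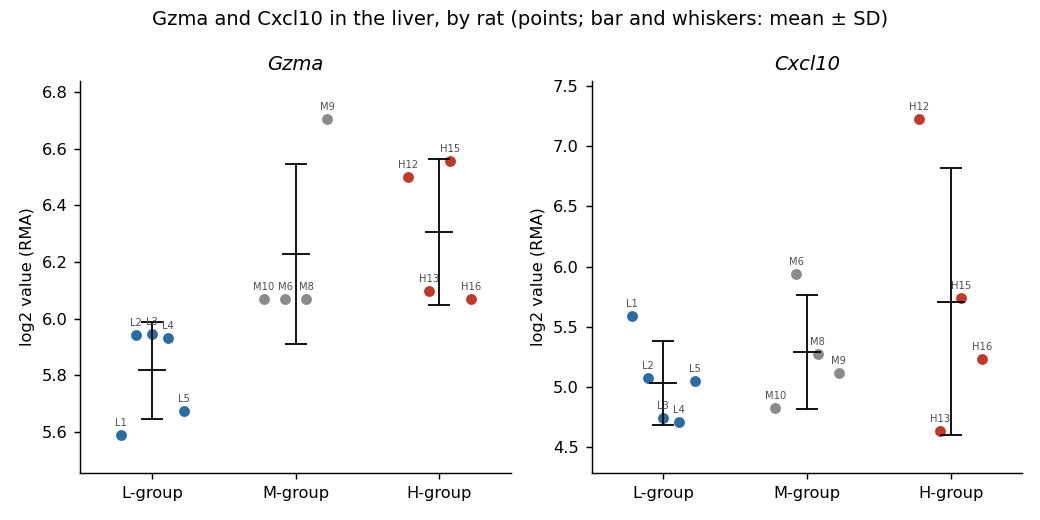
Liver log2 values (RMA, vertical axis) of *Gzma* and *Cxcl10* by diet group (horizontal axis), with 1 point a rat, the mean as a bar and the SD as whiskers. In *Gzma* every M and H rat lies above every L rat, with M9 highest at 6.71; in *Cxcl10* the groups overlap and H12 stands highest at 7.23.

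No gene that defines a lymphocyte type was called by either test. Of the 24 T cell genes, 12 were higher and 12 lower in H, with a median log2 fold change of 0.00. *Cd3e* differed by 0.00 (standard error 0.10) and *Cd8b*, the partner chain of CD8, by -0.01 (standard error 0.07). Of the 15 NK cell genes, 11 were higher and 4 lower, with a median of 0.05, and the NK receptor genes *Klrd1* and *Klrk1* had 0.05 (standard error 0.25) and 0.13 (standard error 0.09). Of the 12 B and plasma cell genes, 8 were higher and 4 lower, with a median of 0.03. Of the 15 general leukocyte genes, 5 were higher and 10 lower, with a median of -0.01, and 0 higher and 2 lower at an unadjusted p under 0.05 by limma. The summed level of the T cell list (the mean log2 value of its genes in a rat) ranged from 4.05 to 4.13 in the L-group and from 4.06 to 4.13 in the H-group, and that of the NK cell list from 4.13 to 4.23 and from 4.14 to 4.36. *Ptprc*, which encodes the leukocyte marker CD45, differed by 0.13 (standard error 0.15) on 1 probe set and by -0.06 (standard error 0.11) on the other, and *Cd68*, a macrophage marker, by 0.31 (standard error 0.18, adjusted p = 0.659 by limma). The part of cell numbers in the *Prf1* and *Ccl5* values was not tested.

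Among the 29 other chemokine ligands, 17 were higher and 12 lower in the H livers, with a median of 0.02. *Cxcl1*, a neutrophil attractant, was at 4.81, 5.96, 6.28, 5.09 and 6.28 in rats L1 to L5 and at 8.91, 5.89, 9.10 and 6.24 in H12, H13, H15 and H16. H12 and H15 were far above all other livers, and H13 and H16 lay within the L range. The log2 fold change was 1.85 (standard error 0.60, adjusted p = 0.394 by limma), and rank products called it in all 9 fits that left out 1 rat. *Cxcl10*, a T cell attractant induced by interferons, had 0.68 (standard error 0.40, adjusted p = 0.674 by limma) and rested on H12 at 7.23, and without H12 it was 0.17. *Pf4*, a platelet chemokine, had 0.56 (standard error 0.20), *Ccl4*, a chemokine gene of activated T and NK cells and macrophages, had 0.42 (standard error 0.22), and *Cxcl9* had -0.15 (standard error 0.28). The *Ccl4* value rested on H12 at 6.59, with the other H rats between 5.10 and 5.47, and without H12 it was 0.10.

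No chemokine receptor gene was called by either test. Of 17 receptor genes, 7 were higher and 10 lower in H, with a median of 0.00. *Cxcr5*, the receptor of the *Cxcl13* product, differed by 0.02 (standard error 0.09) and *Cxcr3*, the receptor for *Cxcl9* and *Cxcl10* products, by -0.12 (standard error 0.07). Of the 24 antigen presentation and interferon gamma response genes, 12 were higher and 12 lower, with a median of 0.00, and *Gbp2*, an interferon-induced GTPase, had 0.64 (standard error 0.29, adjusted p = 0.547 by limma), and 0.40 without H12. Of the 13 macrophage genes 10 were higher, but *Cd14*, the co-receptor for bacterial lipopolysaccharide, was called lower by rank products at -0.63 (standard error 0.26, adjusted p = 0.511 by limma), and without H12 it was -0.36 and not called.

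The list genes with the smallest limma p-values in the liver, none of which passed, were mixed in direction. *Nlrc5*, the activator of MHC class I genes, had 0.41 (standard error 0.14), and *Fcgr3a*, an Fc receptor gene of NK cells and macrophages, had 0.38 (standard error 0.17). *Fcrla*, expressed in B cells, had 0.47 (standard error 0.16), *Cxcr4*, the receptor for the *Cxcl12* product, had 0.35 (standard error 0.16), and *S100a9* had 0.32 (standard error 0.13). *Runx3*, a factor needed for CD8 T cell fate, had -0.19 (standard error 0.07) and *Lsp1*, a leukocyte cytoskeleton gene, had -0.23 (standard error 0.09).

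**Figure D4:**
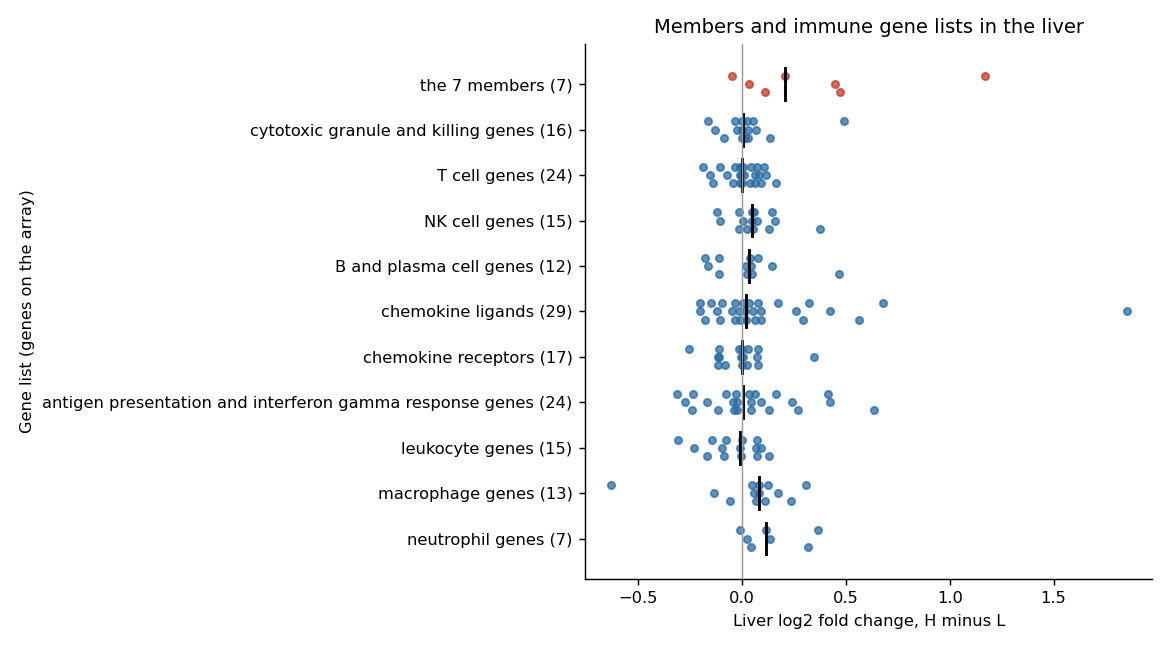
Liver log2 fold change from L to H (horizontal axis) of each gene, for the 7 members and the 10 immune gene lists (vertical axis, with the number of genes on the array); points are genes, spread vertically for legibility, and black lines are medians. The medians of the lists lie between -0.01 and 0.12, and the members, which were chosen with these values known, have a median of 0.21.

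The liver genes whose pattern was most like that of the members were ranked by Pearson's r with the mean of the centred member values over the 13 livers, as a description. The closest was *Tlr7*, which encodes an endosomal sensor of single-stranded RNA, at r = 0.91. *Dlx1* (0.89) and *Caprin2* (0.89) followed, then *Hs6st2*, *Otud5*, *Cmpk2*, *Alkbh2*, *Abi2* and *Inpp1*. *Cmpk2*, a mitochondrial nucleotide kinase gene, was among the closest 10 on 2 probe sets (0.88 and 0.86). The members themselves ranged from -0.08 for *Cd2* to 0.87 for *Prf1* and *Ccl5*, and the measure is carried by the members with the widest range. All points share the liver arrays and their normalization.

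WAT offered arrays that the liver values did not involve, although from the same rats. Of the 7 members, 5 held a single value on all 9 WAT arrays (*Prf1*, *Gzmb*, *Nkg7*, *Cd8a* and *Cd2*), as did 25762 of all 31042 probe sets, so that nothing can be said about their diet response. Only *Ccl5* and *Cxcl13* varied.

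*Cxcl13* in WAT was at 7.93, 7.63, 8.13, 8.10 and 7.46 in rats L1 to L5, and at 9.02, 7.89, 8.37 and 8.75 in H12, H13, H15 and H16. Of the 4 H rats, 3 were above every L rat, and H13 lay within the L range. Means were 7.85 ± 0.30 (SD, n = 5) and 8.51 ± 0.49 (SD, n = 4). The log2 fold change was 0.66 (standard error 0.26, adjusted p = 0.805 by limma), so it did not pass over all probe sets. Of *Ccl5* and *Cxcl13*, the members that varied, *Cxcl13* alone had an unadjusted p under 0.05 by limma. Of all 31042 probe sets, 0.799% were higher and 0.483% lower in H at that threshold. Those shares count the 25762 that held a single value, so the count is not read as a result.

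*Ccl5* in WAT was at 7.65, 7.76, 8.18, 7.69 and 7.73 in rats L1 to L5, and at 8.03, 8.58, 7.70 and 7.88 in H12, H13, H15 and H16. H13 was highest and L3 next, and the groups overlapped. The log2 fold change was 0.25 (standard error 0.20, adjusted p = 0.851 by limma), and without H13 it was 0.07. Limma called neither gene, against 0.0548% of all probe sets called, and 16 of those 17 calls were probe sets that held a single value.

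Immune genes beyond the members were partly measurable in WAT. Limma called none of the 171 (4 were higher and 0 lower at an unadjusted p under 0.05, against 0.799% and 0.483% of all probe sets), and 106 of them held a single value. Rank products called 11 higher and 1 lower, against 0.773% and 1.08% of all probe sets. The gene called lower was *Cxcl1*, at -0.65 (standard error 0.51, adjusted p = 0.851 by limma), and all 9 fits that left out 1 rat called it. It spanned 7.03 to 8.30 in the L-group and 6.39 to 8.38 in the H-group, where 3 rats lay below every L rat and H16 above all of them, and without H16 the log2 fold change was -1.14. *Itgb2*, a leukocyte integrin chain, had 0.42 (standard error 0.10, adjusted p = 0.623 by limma), and *Irf1*, an interferon-induced factor, had 0.37 (standard error 0.10). The macrophage genes *Cd163* and *Cd68* had 0.26 (standard error 0.07) and 0.50 (standard error 0.21). *Tnfsf10*, which encodes the death ligand TRAIL, had 0.65 (standard error 0.30). For *Itgb2*, *Irf1* and *Cd163* every H rat was above every L rat, as in 0.271% of all probe sets. The shares in this paragraph are over all 31042 probe sets, of which 25762 held a single value in WAT. They are not the shares among the 5280 that vary, so a list count above them is not read as a result. Without H13, 2 list genes were called by rank products, without H16 3, without H12 4 and without H15 6, in place of 12. Without H13, and likewise without H16, 0 were called higher, and all calls left were lower in H. Of the 9 fits that left out 1 rat, 7 called *Tnfsf10*, 6 *Itgb2*, 5 *Irf1*, 4 *Cd68* and 2 *Cd163*. The summed level of the macrophage list ranged from 9.56 to 9.85 in the L-group and from 9.66 to 10.09 in the H-group beside the *Cxcl13* and *Ccl5* values, and its part in them was not tested.

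In BAT 3 of the 7 members, *Cd8a*, *Nkg7* and *Cd2*, lay at or near the lower limit of the values, 2.29. *Cd8a* held that value on all 9 arrays, *Nkg7* lay within 0.1 of it on all 9 and *Cd2* on 8, and *Gzmb* spanned 2.41 to 2.67. *Ccl5* and *Prf1* lay above the array median on every array. The BAT array medians, 2.43 to 2.51, were themselves close to the lower limit, so this says little about detection. Limma called none of the 7 members at an adjusted p under 0.05 and none at an unadjusted p under 0.05, against 0% and, for higher and lower in H, 2.66% and 1.81% of all 31042 probe sets.

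*Ccl5* in BAT was at 4.27, 5.59, 3.94, 4.17 and 4.18 in rats L1 to L5, and at 5.74, 5.99, 4.33 and 4.18 in H12, H13, H15 and H16. H12, H13 and L2 stood together above the other 6 rats, which lay within 3.94 to 4.33, so the spread ran within the diet groups. The log2 fold change was 0.63 (standard error 0.52, adjusted p = 0.970 by limma), and it was 0.32 without H13 and 0.92 without L2.

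*Prf1* in BAT was at 3.64, 3.69, 3.64, 3.64 and 3.64 in rats L1 to L5, and at 4.23, 4.23, 3.60 and 3.64 in H12, H13, H15 and H16. The same 3 rats, H13, H12 and L2, had the highest values, as for *Ccl5*, but L2 at 3.69 was close to the other L rats at 3.64. The log2 fold change was 0.28 (standard error 0.15, adjusted p = 0.970 by limma). Without H13 it was 0.17.

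*Cxcl13* in BAT was at 2.29 in L1, at 2.55 in 6 rats, at 2.68 in H16 and at 3.08 in H12. Its log2 fold change was 0.22 (standard error 0.12, adjusted p = 0.970 by limma), and without H12 it was 0.09.

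**Figure D5:**
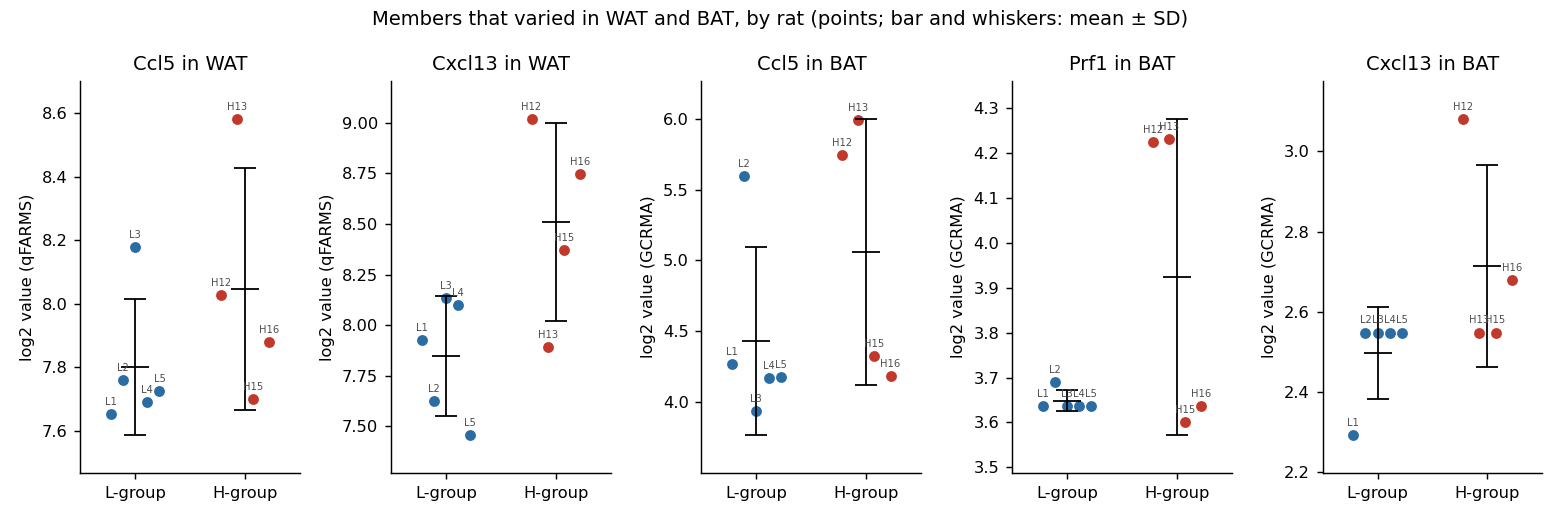
Log2 values by rat of *Ccl5* and *Cxcl13* in WAT (qFARMS) and of *Ccl5*, *Prf1* and *Cxcl13* in BAT (GCRMA) on the vertical axes, by diet group on the horizontal axes; points are rats, bars means and whiskers SD (5 L and 4 H rats). In WAT *Cxcl13*, H12, H16 and H15 lie above every L rat, and in BAT *Ccl5*, H13, H12 and L2 lie near 5.6 to 6.0 with the others near 4.

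General leukocyte and macrophage genes were read beside these values. *Ptprc* in BAT was at 4.31, 4.83, 4.14, 4.37 and 4.53 in rats L1 to L5 and at 5.32, 4.84, 4.42 and 4.32 in H12, H13, H15 and H16, so the same 3 rats H12, H13 and L2 were highest as for *Ccl5*. The other *Ptprc* probe set had a log2 fold change of 0 in BAT, at a mean of 2.31. *Cd68* was at 5.20, 5.23, 5.57, 4.44 and 4.98 and at 5.96, 5.26, 6.55 and 5.51, with H15 highest. The 9 liver marker genes, as a mean of centred values, lay between 0.10 and 0.29 in the H-group and between -0.36 and -0.03 in the L-group. By group mean, 3 of the 9 were higher in H, 3 were lower and 3 held a single value, with a median log2 fold change of 0. The part of each in the member values was not tested. By Pearson's r over the 9 BAT arrays, the genes most like the mean of the members were *Sdr39u1* (0.97), *Pycard*, an inflammasome adaptor gene (0.97), *Ythdc1* (0.95), *Akr1b8* (0.95), 6430548M08Rikl, *Mkrn1*, *Tst*, *Dusp6*, *Washc4* and *Ptprc* (0.92). Among the immune lists in BAT, limma called none of 171. At an unadjusted p under 0.05 by limma, 2 were higher and 0 lower, against 2.66% and 1.81% of all probe sets. Rank products called 2 higher and 1 lower, against 0.683% and 1.31% of all probe sets. Those higher were *S100a9*, a neutrophil alarmin gene, at 0.85 (standard error 0.34) and *Cd68* at 0.74 (standard error 0.32), and *Cd14* was lower at -0.94 (standard error 0.46). These shares are over all 31042 probe sets, of which 10370 held a single value in BAT, as did 55 of the 171 list genes. A list count above them is not read as a result.

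Whether the diet difference differed between the adipose tissues was tested for the members that varied in both, as an interaction of tissue and diet by limma. For *Ccl5* the BAT difference was larger than the WAT difference by 0.38 (standard error 0.56, adjusted p = 1 by limma). For *Cxcl13* it was smaller, by -0.44 (standard error 0.29, adjusted p = 0.973 by limma). Neither passed, against 0.0419% of all probe sets called, and the WAT and BAT values come from different summary methods, which cannot be told apart from the tissues. That fit took the WAT and BAT arrays of the same rat as independent. With the rat as a block, the standard errors were 0.47 for *Ccl5* and 0.21 for *Cxcl13*. Neither passed there, and 0 probe sets were called.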

How the data were processed

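RNA of liver, WAT and BAT was hybridised to 31 Affymetrix rat genome arrays. The authors deposited log2 values, summarised by RMA in the liver, qFARMS in WAT and GCRMA in BAT, each tissue on its own, and the values were used as deposited. After 57 control probe sets were left out, 31042 remained, of which 20826 carried 1 gene symbol, 436 several and 9780 none; where several probe sets named a gene and no other, the one with the highest tissue mean stood for it. The members and gene lists were chosen with earlier results of these data known. The named genes are every member, a set of killing, receptor and chemokine genes with *Ptprc* and *Cd68*, and list genes with small p-values, of which only some are given for length.

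Group differences were fitted with limma 3.58.1 (R 4.3.3; lmFit, eBayes) over all probe sets, with Benjamini-Hochberg adjustment and a threshold of 0.05, on 13 liver, 9 WAT and 9 BAT arrays. Rank products, the study's test, used 100 permutations and an FDR under 0.05. Both were run on simulated data with the means and spreads of the L and H livers. The simulated noise was normal and independent between probe sets, with no probe sets held at a single value. It therefore does not test either method on the WAT or BAT values. Python 3.11.15, pandas 2.3.3, scipy 1.17.1 and matplotlib 3.10.9 were used otherwise. The labels do not say more on replication than 1 animal an array, and the number of arrays limits the precision. WAT and BAT arrays of 1 number come from the same rat: after removal of the group means their correlation over 4856 probe sets was 0.13 to 0.48, and a fit with the rat as a block was an alternative. Other alternatives changed the centring, normalization, probe set choice, filters, eBayes setting and arrays used.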

Additional observations from a re-analysis of the deposited data

Results flagged for a closer look

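In 9 of the 37 groups of values of the members, the highest or lowest rat stood far from the others of its group. Chance gives this in about 5% of groups only where values are not tied. In the flagged BAT groups of *Prf1*, *Nkg7*, *Cd2* and *Cxcl13*, the other rats held the same or nearly the same value. Even a small departure is flagged there, so the count cannot be compared with that rate. In the liver, *Nkg7* of rat M10 was 4.09, with the other M rats between 4.57 and 4.60. In WAT, *Ccl5* of rat L3 was 8.18, with the other L rats between 7.65 and 7.76. In BAT, *Ccl5* of rat L2 was 5.59, with the other L rats between 3.94 and 4.27, and *Prf1* of the same rat was 3.69, with the others at 3.64. *Cxcl13* of L1 was 2.29 in BAT, with the other L rats at 2.55. *Cd2* was 2.54 in L4 and 2.33 in H16, the latter apart from the other H rats by less than 0.01. *Nkg7* was 2.31 in L4 and 2.35 in H12, with the other rats of their groups at 2.29.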

How the results depend on the processing

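The 3 members without overlap between L and H livers stayed 3 without any 1 rat and after centring. They also stayed 3 without rats L5, M9 and M10, an alternative chosen after seeing the data. Between L and H livers that alternative leaves out only L5, so it repeats the result without L5. The liver L vs M median of the members was 0.25 without M10 (0.086 to 0.25 without any 1 rat). No alternative run gave a limma call among the members in WAT or BAT. This says little about the members. Among the probe sets that vary, limma called 0 of 5280 in WAT and 0 of 20672 in BAT. Rank products was read for the list genes only, not for the members. Rank products at an FDR under 0.01, or on probe sets above the median, left 2 list genes in the liver and 2 in WAT, and an FDR under 0.01 left 1 in BAT; without any 1 rat the counts were 2 to 6 in the liver, 2 to 13 in WAT and 1 to 4 in BAT. At an unadjusted p under 0.05, limma gave 20, 4 and 2. With the rat as a replicate block, the BAT against WAT difference of *Ccl5* was 0.38 (adjusted p = 1 by limma) and that of *Cxcl13* -0.44 (standard error 0.21, adjusted p = 0.987 by limma), with 0 probe sets called in place of 13, and the pairing changed no call of a member. Small differences that changed sign, beside those of the members in the liver given with their values above, were, in BAT, *Nkg7* at -0.007 after centring and -0.0038 to 0.014 without 1 rat, *Cd2* at -0.050 to 0.0005, *Cxcl9* at -0.26 to 0.33 and *Cxcr5* at -0.19 to 0.045; in WAT, *Cxcl9* at -0.19 to 0.60; and in the liver, *Cd3e* at 0.068 and *Cxcr5* at -0.024 without L5, M9 and M10, and, without 1 rat, *Cd3e* at -0.067 to 0.068, *Cxcr5* at -0.024 to 0.10, *Gzmk* at -0.027 to 0.12, *Faslg* at -0.065 to 0.044, *Cd8b* at -0.055 to 0.039, *Klrd1* at -0.032 to 0.17 and *Cxcl9* at -0.52 to 0.066. The cause was not tested.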
